A study of Mus musculus with 14 samples.

Results

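CD166 cells of the mouse ileum were compared with CD166 cells of the jejunum in 4 RNA sequencing libraries, 2 from each region, out of 14 libraries in the series. The 4 libraries were chosen by their labels alone, and all genes were fitted on them. Both groups came from male C57Bl6 mice of 6 to 12 weeks and were sorted as CD44+/CD24lo/CD166+ cells, a gate used to collect candidate stem cells from dissociated intestinal epithelium. CD166 is the adhesion protein encoded by Alcam. The ileal tissue lay 5 to 8 cm from the cecum and the jejunal tissue 5 to 8 cm from the pylorus, and the sorted cells were lysed without culture. The labels give no allele, treatment or batch, and do not say whether mice were pooled or whether libraries 1 and 2 of a group came from different mice. The p-values therefore measure the spread between these libraries, which may be technical. Cells sorted as LGR5 stem cells (2 ileal and 2 jejunal libraries, same strain, sex and age range) were used to test whether a regional difference was the same in both populations, for the levels of a few genes, and in alternative fits.

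The epithelium of the small intestine is renewed from crypts, whose base holds LGR5 stem cells beside Paneth cells that secrete lysozyme and alpha-defensins. Enteroendocrine cells, scattered hormone-releasing cells, differ along the gut: glucagon-like peptides and peptide YY belong to the distal small intestine, and GIP and ghrelin to the proximal part. The jejunum absorbs much of the fat and sugar of the diet and expresses the factor GATA4, and the ileum reclaims bile acids through Slc10a2 and Fabp6. Hox genes carry positional information along the body axis.

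The 4 libraries held 10503384 and 16272345 expected counts in ileum, and 14325049 and 13646762 in jejunum; 1 gene, Lyz1 or Defa24, took 1.3% to 2.32% of each. Values are CPM, counts scaled to the size of the library by TMM, given for library 1 and then library 2, and they compare libraries, not genes. Between libraries, correlations of log2 CPM were 0.962 within ileum, 0.972 within jejunum and 0.936 to 0.953 across regions. Ileal library 1 and jejunal library 2 shared high levels of immediate-early genes (the sum over 20 genes was 2990 and 1060 CPM in ileum, 1590 and 4130 CPM in jejunum) and of Y-linked genes (sum over 4 genes 88.9 and 14.1 CPM, 28.5 and 86.6 CPM). Xist, transcribed from the inactive X chromosome of females, was at 620, 793, 200 and 757 CPM in the same order, so that transcripts of both sexes were present in all 4 libraries labelled male. The part of sex in the results below was not tested. Fewer cells of a type and less RNA per cell cannot be told apart in such bulk libraries.

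Of the genes of the sort gate, Alcam, Cd44 and Cd24a were not called between the regions. Alcam was at 39.7 and 38.1 CPM in ileum and 49.9 and 40 CPM in jejunum, with a log2 difference (ileum minus jejunum, as for all log2 differences here) of -0.21 ± 0.20 (SE, adjusted p = 0.852). In LGR5 cells Alcam lay between 43.6 and 51.1 CPM, a range that overlaps that of CD166 cells. Cd44 (174, 190, 184 and 155 CPM) differed by 0.10 ± 0.21 and Cd24a (745, 1060, 1200 and 1030 CPM) by -0.30 ± 0.29, with adjusted p-values of 0.954 and 0.854. The stem cell gene Olfm4 was present at 8780 to 11400 CPM. Some genes of other cell types had higher levels than in LGR5 cells without overlap. Lyz1, lysozyme of Paneth cells, was at 10500 to 20700 CPM in the CD166 libraries and at 1970 to 3660 CPM in the LGR5 libraries, and Gip, a hormone of enteroendocrine cells, was at 238 to 6690 CPM against 5.85 to 72.4 CPM. The labels call the cells stem cells, and the libraries also held these transcripts.

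Of 13784 genes tested, 571 (4.14%) were called at an adjusted p under 0.05: 239 (1.73%) were higher in ileum and 332 (2.41%) lower, and the median log2 difference of all genes was 0.007. At least 2-fold differences were found for 204 of the higher and 283 of the lower genes. Values of the ileal and jejunal libraries did not overlap for any of the 571. Absence of overlap alone was common, at 18.6% of tested genes in the higher and 21% in the lower direction. Counts of calls in the lists below stand against 1.73% higher and 2.41% lower over all tested genes. A fit without 1 library leaves 1 in its group, which then adds no spread to the p-values. Such fits show how calls depend on single libraries and are not added evidence of a difference. Without jejunal library 1 or 2 the count fell to 133 and 135, without ileal library 1 or 2 it was 929 and 687, and a fit over all 14 libraries called 3. Of 88 called genes named in the text, 51 kept their call with any 1 library left out; where a gene did not, the adjusted p without that library is given beside its values.

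**Figure D1:**
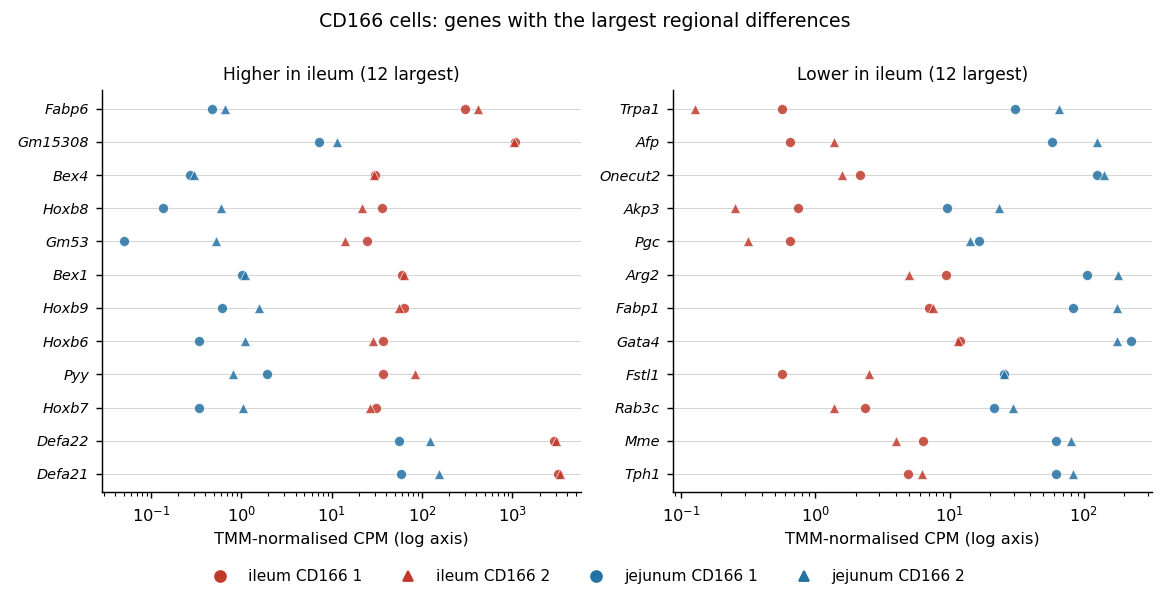
Level of the 12 genes with the largest regional difference in each direction, as CPM on a log axis, 1 point per library (red, ileum; blue, jejunum; circles, library 1; triangles, library 2). A count of 0 (Gm53, jejunal library 1) is drawn at 0.05 CPM. The points of the regions lie apart because the genes were chosen so. Differences run from 12.9-fold for Tph1 to 624-fold for Fabp6.

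Fabp6, which carries bile acids through the cytosol of ileal enterocytes, differed most among the genes named by the rule. Fabp6 was at 302 and 421 CPM in ileum and 0.479 and 0.668 CPM in jejunum. Its level was 624-fold higher in ileum (log2 9.28 ± 0.36, adjusted p = 1.03e-08). The jejunal values rested on 7 and 9 counts. The limit that a count of 0 allows, taken as 3 counts, was 0.205 and 0.223 CPM in these libraries.

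Of 16 genes of ileal function 11 were called higher and none lower, with a median log2 difference of 2.36. This list was written with earlier results of these data known, so its direction is not independent support. Osr2, a zinc finger factor, was at 112 and 89.8 CPM in ileum and 20.3 and 16.2 CPM in jejunum (5.52-fold, log2 2.46 ± 0.22, adjusted p = 1.56e-05). Slc5a8, a carrier of short-chain monocarboxylates, was at 26.1 and 18.1 CPM against 1.64 and 2.3 CPM (11.2-fold, adjusted p = 3.71e-05). Slc10a2, the apical carrier that takes up bile acids, was at 4.49 and 3.99 CPM against 0.205 and 0.297 CPM (log2 4.03 ± 0.60, adjusted p = 0.00127). Ostb, a subunit of the basolateral bile acid exporter, was at 15.3 and 11.8 CPM against 1.64 and 4.01 CPM (log2 2.26 ± 0.42, adjusted p = 0.00801), and its partner subunit Osta at 37.1 and 39.8 CPM against 22.3 and 21.8 CPM (log2 0.80 ± 0.21, adjusted p = 0.0434). The bile acid receptor gene Nr1h4 (40.9 and 37.7 CPM, 22.3 and 23.7 CPM) missed the threshold at an adjusted p of 0.0519. Guca2a, the guanylin precursor secreted by goblet cells, was at 672 and 1260 CPM against 274 and 211 CPM (3.99-fold, adjusted p = 0.00345). In every pair the lowest ileal library lay above the highest jejunal library. Several of these calls rested on both jejunal libraries. Slc10a2 had adjusted p-values of 0.116 and 0.0959 without jejunal library 1 or 2, and Guca2a 0.243 and 0.246. Ostb lost its call without jejunal library 1 (adjusted p = 0.144), and Osta without any 1 of the 4 (0.088 to 0.242). With 3 libraries, 9 and 10 of the list were called without ileal library 2 and 1, and 4 and 6 without jejunal library 1 and 2, none lower.

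Part of the Hox genes, factors of the anterior-posterior axis, were higher in ileum. Of 13 tested members 8 were called higher and none lower (median log2 3.34). The other 20 of 33 genes in the list were too low to test. The called members were Hoxb3 to Hoxb9 and Hoxd4. The tested Hoxa genes, Hoxa3, Hoxa4, Hoxa5 and Hoxa10, were not called (edgeR adjusted p 0.234 to 0.995). Their log2 differences were 0.99, -0.20, -1.99 and 0.04. Hoxb8 was at 36.2 and 21.8 CPM in ileum and 0.137 and 0.594 CPM in jejunum (78.8-fold, log2 6.30 ± 0.52, adjusted p = 8.4e-05). Hoxb9 was at 63.2 and 55.5 CPM against 0.616 and 1.56 CPM (54.7-fold, log2 5.77 ± 0.35, adjusted p = 1.31e-06). Both ileal libraries were high and both jejunal libraries close to 0 for each.

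The other Hoxb genes had smaller or similar differences. The log2 differences of Hoxb6 and Hoxb7 were 5.51 ± 0.43 and 5.39 ± 0.41 (adjusted p 1.81e-05 and 6.84e-06) and that of Hoxb5 was 5.17 ± 0.53 (adjusted p = 6.95e-05). Those of Hoxb3 and Hoxb4 were 3.34 ± 0.42 and 3.00 ± 0.50 (adjusted p 0.000306 and 0.00267). Hoxb2 went the other way in level, at 0.842 and 0.696 CPM against 1.71 and 2.75 CPM, and was not called (adjusted p = 0.233). Hoxd4 had no count in jejunum and 28 and 35 counts in ileum, which is at least 11.3-fold higher against a floor of 3 counts per jejunal library. Without jejunal library 1 or 2, Hoxb3 had adjusted p-values of 0.0569 and 0.0561, Hoxb4 of 0.11 and 0.131, and Hoxd4 of 0.109 and 0.101, and 5 members of the list were called in each fit.

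Among 26 tested positional transcription factors outside the Hox family, 2 were higher, Osr2 among them, and 5 lower, and the median was -0.05. Gata4, which directs jejunal gene expression, was at 12 and 11.5 CPM in ileum and 223 and 177 CPM in jejunum, 17.1-fold lower in ileum (log2 -4.09 ± 0.23, adjusted p = 2.52e-07). Its relatives were not called: Gata5 (85.1, 70.6, 63.3 and 60.7 CPM) differed by 0.33 ± 0.20 and Gata6 (131, 86.9, 128 and 104 CPM) by -0.09 ± 0.23, with adjusted p-values of 0.613 and 0.962. Onecut2, a cut-homeobox factor, was at 2.15 and 1.58 CPM against 126 and 141 CPM (72.6-fold lower, adjusted p = 1.95e-08). Creb3l3, a factor of lipid metabolism, was at 1.68 and 2.79 CPM against 21.4 and 25.5 CPM (10.3-fold lower, adjusted p = 3.71e-05). Pdx1, a factor of pancreas and proximal gut, was at 1.78 and 2.91 CPM against 18.1 and 18.2 CPM (log2 -2.92 ± 0.34, adjusted p = 0.000184). Pdx1 lost its call without jejunal library 2 (adjusted p = 0.0523), when 2 of the list were higher and 3 lower, and 1 was higher and 4 lower without jejunal library 1. The caudal factor Cdx2 (337, 314, 286 and 288 CPM) and Hnf4a (889, 753, 1150 and 869 CPM), which act throughout the intestine, were not called.

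Promoters of the 24 genes with the largest differences were searched for 2 motifs, AGATAA, bound by GATA factors, and TTTATG or TTTACG, bound by caudal and posterior Hox factors, on both strands. The windows run from 250 bases before to 50 bases after the annotated start, from RefSeq on GRCm38.p6. Of the 12 ileal genes 7 had an entry, with 8 windows, of which 4 held the caudal motif and 0 held AGATAA. Of the 12 jejunal genes 8 had an entry, with 11 windows, of which 1 held the caudal motif and 0 held AGATAA. Other letters around GATA, such as TGATAA or AGATAG, were not searched, so these windows may hold further GATA sites. Over all 32851 windows the shares were 14.6% and 11.2%. The caudal motif stood at -111 in Fabp6, at -175, -157 and -143 in Hoxb8, at -239 in Defa21 and Defa22, and at -226 and -88 in the jejunal gene Fabp1 (first base of the match counted from the start of transcription). These 4 promoters are shown because they hold the matches, which are given in capitals on the strand of the gene; only the 250 bases before the start are printed. A match describes letters and was not tested as a binding site.
Fabp6, chr11:43601563-43601812, minus strand: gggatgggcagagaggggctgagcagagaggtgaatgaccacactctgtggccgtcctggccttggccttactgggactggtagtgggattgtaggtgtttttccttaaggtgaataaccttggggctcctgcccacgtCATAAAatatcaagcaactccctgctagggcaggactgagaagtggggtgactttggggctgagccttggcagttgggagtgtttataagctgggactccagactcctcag
Hoxb8, chr11:96281655-96281904, plus strand: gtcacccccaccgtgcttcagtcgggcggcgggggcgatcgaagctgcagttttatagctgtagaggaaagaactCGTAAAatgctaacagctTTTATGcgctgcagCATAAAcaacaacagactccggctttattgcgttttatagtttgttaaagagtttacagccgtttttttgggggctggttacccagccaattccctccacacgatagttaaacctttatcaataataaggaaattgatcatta
Defa21, chr8:21025295-21025544, plus strand: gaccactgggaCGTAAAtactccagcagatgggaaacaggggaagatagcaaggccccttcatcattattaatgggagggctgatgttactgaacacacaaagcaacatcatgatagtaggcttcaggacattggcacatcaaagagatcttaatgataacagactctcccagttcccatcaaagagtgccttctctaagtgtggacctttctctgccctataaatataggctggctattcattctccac
Fabp1, chr6:71199629-71199878, plus strand: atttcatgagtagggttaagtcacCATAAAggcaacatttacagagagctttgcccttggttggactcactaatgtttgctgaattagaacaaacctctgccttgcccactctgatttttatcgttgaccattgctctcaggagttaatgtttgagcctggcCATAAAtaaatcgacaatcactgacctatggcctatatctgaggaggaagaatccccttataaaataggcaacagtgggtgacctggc

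The windows of Defa21 and Defa22 were identical over all 300 bases, and these alpha-defensin genes may share reads. Of 19 tested Paneth cell genes 5 were higher in ileum and none lower, while the median was -0.01. Defa22 was at 2850 and 3070 CPM in ileum and 56.2 and 122 CPM in jejunum (33.2-fold, log2 5.05 ± 0.43, adjusted p = 1.75e-05). Defa21 was at 3200 and 3320 CPM against 59.2 and 153 CPM (30.7-fold, adjusted p = 0.000253), and Defa20 at 1760 and 1640 CPM against 41.8 and 89.1 CPM (26-fold, adjusted p = 2.5e-05). Gm15308, a predicted gene, was at 1080 and 1030 CPM against 7.25 and 11.5 CPM (112-fold, adjusted p = 1.3e-07).

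Lyz1 and Defa24, also Paneth cell genes, were not called. Lyz1 was at 15900 and 10500 CPM in ileum and 12700 and 20700 CPM in jejunum (log2 -0.34 ± 0.40, adjusted p = 0.891), and Defa24 at 14000 and 15000 CPM against 11900 and 23500 CPM (log2 -0.29 ± 0.41, adjusted p = 0.914). The regions overlapped for both, and the summed level of the Paneth list was 50800 and 49900 CPM against 38200 and 61800 CPM. Mmp7, the protease that activates alpha-defensins in the mouse, was at 1240 and 2040 CPM against 559 and 778 CPM (log2 1.29 ± 0.33, adjusted p = 0.0401). Mmp7 lost its call without ileal library 2 (adjusted p = 0.581) or without jejunal library 1 or 2 (0.427 and 0.183). Of the list, 3 were called higher without jejunal library 1 and 4 in each of the other 3 fits.

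**Figure D2:**
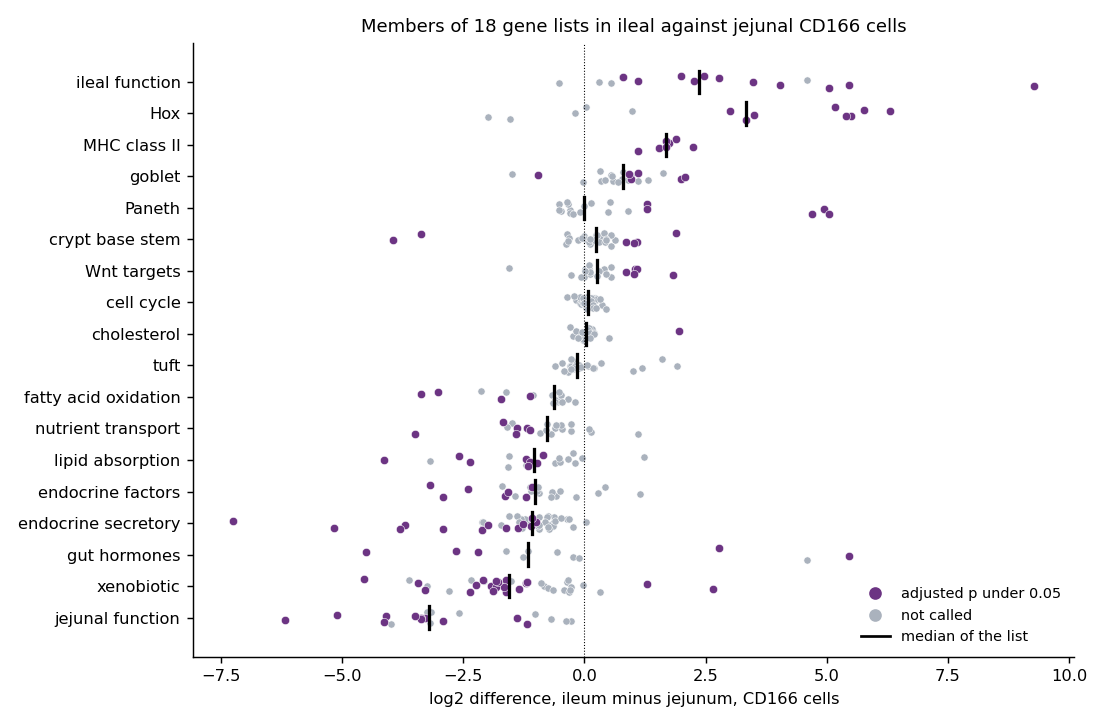
Log2 difference (ileum minus jejunum) of each tested member of 18 gene lists, 1 point per gene (purple, adjusted p under 0.05; grey, not called), with the median of each list as a bar. Hoxd4 and Ucn3, which had no count in 1 region, are drawn at the bounds 3.5 and -4.51. Medians run from 3.34 for Hox genes to -3.21 for jejunal genes, and cell cycle genes lie around 0.

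Genes listed for jejunal function were lower in ileum where called. Of 20 such genes 11 were called lower and none higher (median log2 -3.21), and all 20 had a difference below 0. The list was written with earlier results of these data known, so its direction is not independent support. Fabp1, a fatty acid binding protein of enterocytes, was at 7.02 and 7.6 CPM in ileum and 83.2 and 175 CPM in jejunum (17.6-fold lower, log2 -4.14 ± 0.40, adjusted p = 0.00235). Adh6a, an alcohol dehydrogenase, was at 10.6 and 12 CPM against 79.8 and 142 CPM (log2 -3.29 ± 0.29, adjusted p = 9.35e-05). Lct, lactase, was at 3.93 and 3.99 CPM against 18.7 and 52.9 CPM and was not called (log2 -3.17 ± 0.58, adjusted p = 0.0664), the 2 jejunal libraries being far apart. Apoa4, an apolipoprotein of chylomicrons (15.9, 18.9, 78.9 and 239 CPM), was likewise not called (log2 -3.19 ± 0.72, adjusted p = 0.231). With 1 library left out, the log2 difference ran from -3.77 to -2.18 for Apoa4 and from -3.73 to -2.24 for Lct. Both were smallest in size without jejunal library 2.

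Of 20 fat absorption genes 8 were lower in ileum and none higher (median log2 -1.05). Mttp, the transfer protein that loads lipid onto apolipoprotein B, was at 59.6 and 75.3 CPM against 345 and 348 CPM (5.13-fold lower, log2 -2.36 ± 0.23, adjusted p = 3.71e-05). Apob itself was at 119 and 120 CPM against 265 and 253 CPM (log2 -1.12 ± 0.21, adjusted p = 0.00718), and Dgat1, which completes triglyceride synthesis, at 55.2 and 47.7 CPM against 93.2 and 109 CPM (log2 -0.97 ± 0.20, adjusted p = 0.0125). Npc1l1, the cholesterol importer, was at 41.7 and 36.9 CPM against 90.5 and 85.1 CPM (log2 -1.16 ± 0.19, adjusted p = 0.00289). Each had close values within a region. Mttp kept its call with any library left out. Without jejunal library 1 or 2, 4 of the list were called each time, and the adjusted p-values of Npc1l1 were 0.0581 and 0.0523 and those of Dgat1 0.0652 and 0.129. Dgat1 also lost its call without ileal library 2 (0.167), and Apob without ileal library 1 or 2 or jejunal library 1 (0.111, 0.118 and 0.0534).

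Digestive enzymes of the brush border were split, with 3 of 18 higher in ileum and 6 lower (median log2 -0.70). Naaladl1, a peptidase of the ileal brush border, was at 322 and 272 CPM in ileum and 22 and 31.5 CPM in jejunum (11.1-fold, log2 3.47 ± 0.25, adjusted p = 2.52e-06). Mgam, maltase-glucoamylase, was at 878 and 887 CPM against 458 and 383 CPM (log2 1.07 ± 0.26, adjusted p = 0.0355). Its partner in starch digestion, the sucrase-isomaltase gene Sis, went the other way, at 104 and 113 CPM against 301 and 379 CPM (log2 -1.65 ± 0.23, adjusted p = 0.000762). Alpi, an intestinal alkaline phosphatase, was at 10 and 8.67 CPM against 59 and 88.3 CPM (log2 -2.98 ± 0.25, adjusted p = 9.03e-06), and Mme, neprilysin, at 6.37 and 3.99 CPM against 62.3 and 80 CPM (13.9-fold lower, adjusted p = 2.52e-06). Akp3, a further alkaline phosphatase, was at 0.749 and 0.253 CPM against 9.65 and 23.2 CPM (34.4-fold lower, adjusted p = 0.00232). Mgam lost its call without any 1 library (adjusted p 0.0916 to 0.273) and Akp3 without jejunal library 2 (0.0785). The list then had 1 higher and 4 lower calls, against 1 and 7 without jejunal library 1, 2 and 8 without ileal library 1, and 2 and 7 without ileal library 2.

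Sugar and amino acid uptake genes were lower where they were called, 6 of 21 with none higher (median log2 -0.78). Slc7a8, an exchanger of neutral amino acids, was at 40 and 32.5 CPM against 136 and 94.5 CPM (log2 -1.67 ± 0.23, adjusted p = 0.000611). Khk, which phosphorylates fructose, was at 31 and 36.3 CPM against 69 and 108 CPM (log2 -1.40 ± 0.24, adjusted p = 0.00345), and Slc2a2, a hexose carrier, at 0.936 and 1.01 CPM against 5.81 and 16.5 CPM (log2 -3.50 ± 0.54, adjusted p = 0.00316). The sodium-glucose carrier Slc5a1 (206, 222, 256 and 260 CPM) was not called (log2 -0.27 ± 0.22, adjusted p = 0.789). Without jejunal library 2 only Slc7a8 of the named genes kept its call, with adjusted p-values of 0.0933 for Khk and 0.146 for Slc2a2, and 1 of the list was called. Of the list, 4 were lower without ileal library 1 or jejunal library 1, and 7 lower and 1 higher without ileal library 2.

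Genes that process foreign compounds gave the most jejunal calls of the lists: 18 of 38 were lower in ileum and 2 higher (median log2 -1.56). Cyp2c65, a cytochrome P450, was at 12.5 and 15.3 CPM in ileum and 61.3 and 71 CPM in jejunum (4.74-fold lower, log2 -2.25 ± 0.21, adjusted p = 2.86e-05). Ephx2, soluble epoxide hydrolase, was at 13.7 and 14.6 CPM against 73.3 and 72.6 CPM (log2 -2.37 ± 0.20, adjusted p = 1.14e-05), and Gstm3, a glutathione transferase, at 22 and 15.5 CPM against 70.3 and 88.9 CPM (log2 -2.09 ± 0.23, adjusted p = 9.54e-05). The carboxylesterase gene Ces2e was at 67.2 and 79.1 CPM against 177 and 194 CPM (log2 -1.34 ± 0.20, adjusted p = 0.00139). The exceptions were Abcb1a, the efflux pump P-glycoprotein (173 and 160 CPM, 72.2 and 63.6 CPM, log2 1.29 ± 0.20, adjusted p = 0.00163), and Gsta3, a glutathione transferase (21.5 and 15.4 CPM, 2.26 and 3.56 CPM, log2 2.66 ± 0.35, adjusted p = 0.000424). Abcb1a lost its call without jejunal library 2 (adjusted p = 0.0524), when 6 of the list were lower, and Gsta3 without jejunal library 1 (0.0554), when 17 were. Reads may be shared among the copies of the P450, carboxylesterase and transferase families.

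Smaller metabolic lists gave few calls, beside 1.73% higher and 2.41% lower over all tested genes. Of 18 genes of fatty acid oxidation 4 were lower (median log2 -0.63), among them Pdk4, which holds back pyruvate oxidation (2.71 and 6.77 CPM, 37.8 and 41.1 CPM, log2 -3.02 ± 0.38, adjusted p = 0.0024); Pdk4 lost its call without jejunal library 1 or 2 (0.204 and 0.17), and 1 of the list was then called each time. Of 15 genes of fatty acid synthesis 2 were higher and 1 lower (median 0.04): Scd2, a desaturase, was at 333 and 302 CPM in ileum and 75.7 and 46.6 CPM in jejunum (5.19-fold, log2 2.38 ± 0.26, adjusted p = 0.000113), and Mboat1, an acyltransferase of phospholipids, at 29.1 and 36.3 CPM against 5.06 and 3.94 CPM (log2 2.86 ± 0.27, adjusted p = 2.76e-05). The lower call was lost without ileal library 1 or either jejunal library, and the 2 higher calls were made in all 4 fits.

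Hormone genes of enteroendocrine cells differed by region in both directions, and secretory genes of these cells were lower in ileum where called. Of 13 tested hormone genes 2 were higher in ileum and 3 lower (median log2 -1.15). Gcg, the proglucagon gene of L cells, was at 343 and 364 CPM in ileum and 50.5 and 52.6 CPM in jejunum (6.86-fold, log2 2.78 ± 0.23, adjusted p = 7.86e-06). Pyy, the peptide YY gene of the same cells, was at 37.1 and 84 CPM against 1.92 and 0.817 CPM (log2 5.45 ± 0.66, adjusted p = 0.0296). Ghrl, ghrelin, was at 28.8 and 39.1 CPM against 143 and 170 CPM (4.6-fold lower, log2 -2.20 ± 0.23, adjusted p = 5.28e-05). Tac1, which encodes substance P, was at 12.8 and 11.4 CPM against 50.6 and 101 CPM (6.28-fold lower, adjusted p = 0.00444). Ucn3, a urocortin, had no count in ileum and 4.65 and 6.09 CPM in jejunum, at least 22.8-fold lower in ileum against a floor of 3 counts per library. Pyy lost its call without jejunal library 1 or 2 (adjusted p = 0.383 and 0.253), and Ucn3 without jejunal library 2 (0.075). Of the list, 3 were higher and 3 lower without ileal library 1, 2 and 7 without ileal library 2 (median -1.7), 1 and 3 without jejunal library 1, and 2 and 2 without jejunal library 2 (median -0.42).

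Several hormone genes varied within a region. Gip, the incretin of K cells, was at 238 and 1390 CPM in ileum and 3420 and 6690 CPM in jejunum, with no overlap, and was not called (log2 -2.64 ± 1.14, adjusted p = 0.579). Without ileal library 2 its difference was -4.41, and without ileal library 1 it was -1.855. Sst, somatostatin (551, 1060, 1940 and 1640 CPM), had a difference of -1.15 ± 0.34 (adjusted p = 0.0903). Cck, cholecystokinin (35.9, 85.5, 198 and 174 CPM), had one of -1.61 ± 0.43 (adjusted p = 0.166). Ileal library 2 was nearer to jejunum in each, and without it the difference of Cck was -2.37. Sct, secretin (86.4, 292, 193 and 252 CPM), overlapped between the regions. Nts, neurotensin, was at 19.9 and 38.1 CPM in ileum and 0.0684 and 2.38 CPM in jejunum and was not called (log2 4.59 ± 1.45, adjusted p = 0.472). Its difference was 3.61 without jejunal library 1 and 8.55 without jejunal library 2.

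**Figure D3:**
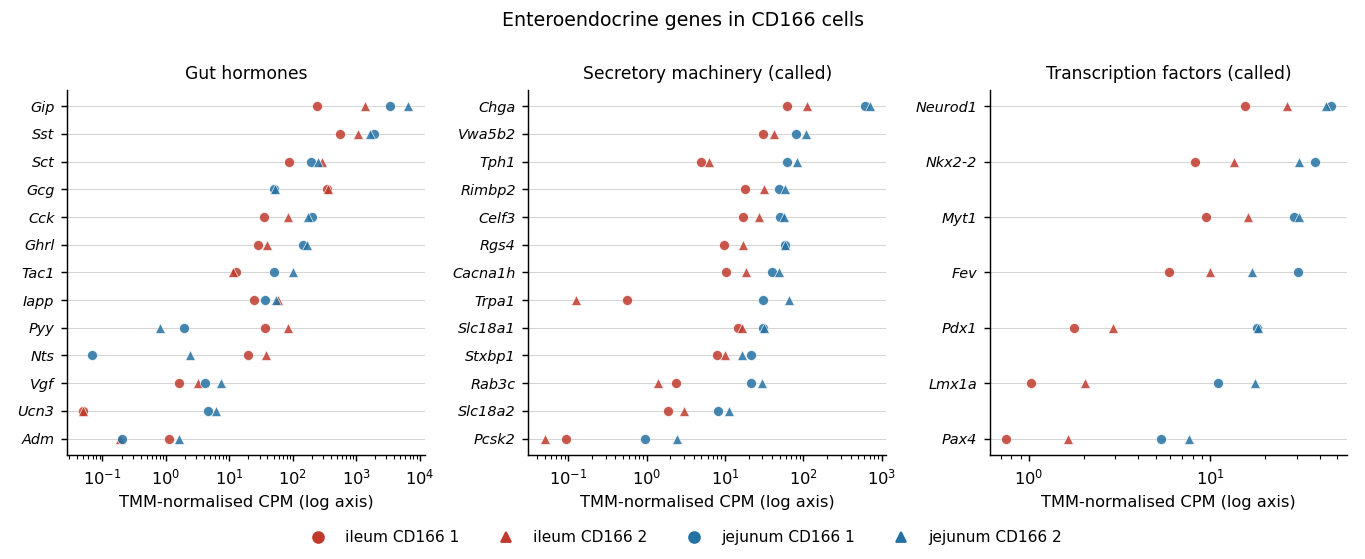
CPM per library (log axis; red, ileum; blue, jejunum; circles, library 1; triangles, library 2) of the 13 tested hormone genes, the 13 called secretory genes and the 7 called transcription factors of enteroendocrine cells. A count of 0 is drawn at 0.05 CPM. Gcg, Pyy and Nts lie higher in ileum, and every called secretory gene and factor lies lower, mostly with ileal library 1 below library 2.

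Of 46 secretory genes of these cells 13 were called lower in ileum and none higher, and 45 had a difference below 0 (median log2 -1.08). Genes of enterochromaffin cells, which make serotonin, were among them. Tph1, the enzyme that starts serotonin synthesis, was at 4.87 and 6.27 CPM in ileum and 62.4 and 83 CPM in jejunum (12.9-fold lower, log2 -3.69 ± 0.25, adjusted p = 1.44e-06). Trpa1, an irritant-sensing channel of these cells, was at 0.562 and 0.127 CPM against 30.8 and 65.2 CPM (151-fold lower, log2 -7.24 ± 0.70, adjusted p = 0.0056). Rab3c, a vesicle GTPase, was at 2.34 and 1.39 CPM against 21.5 and 29.8 CPM (14-fold lower, adjusted p = 1.96e-05). Slc18a1, the vesicular monoamine carrier, was at 14.6 and 16.3 CPM against 30.8 and 31.1 CPM (log2 -0.998 ± 0.22, adjusted p = 0.0195). Chga, the granule protein chromogranin A, was at 62.1 and 112 CPM against 602 and 704 CPM (7.5-fold lower, log2 -2.91 ± 0.31, adjusted p = 0.000102), and Rgs4, a regulator of G protein signalling, at 9.73 and 17.1 CPM against 58.4 and 59 CPM (log2 -2.12 ± 0.26, adjusted p = 0.00038). Chgb, the related chromogranin B (279, 874, 2520 and 2380 CPM), was not called (adjusted p = 0.107). Tph1, Trpa1 and Rab3c kept their calls with any library left out. Chga (adjusted p 0.088 and 0.11), Rgs4 (0.112 and 0.105) and Slc18a1 (0.166 and 0.152) lost theirs without jejunal library 1 or 2, and Slc18a1 also without ileal library 1 (0.0977). The median of the list was -0.69 without ileal library 1, -1.67 without ileal library 2 and -1.03 without jejunal library 1 or 2. Chgb differed by -1.48 without ileal library 1 and by -3.135 without ileal library 2.

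Transcription factors of enteroendocrine differentiation were lower for 7 of 22 genes and higher for none (median log2 -1.03). Nkx2-2 was at 8.24 and 13.4 CPM in ileum and 37.4 and 30.7 CPM in jejunum (log2 -1.64 ± 0.27, adjusted p = 0.00241), and Lmx1a, a factor of enterochromaffin cells, at 1.03 and 2.03 CPM against 11 and 17.5 CPM (log2 -3.18 ± 0.42, adjusted p = 0.000491). Neurod1 (15.4, 26.5, 46.2 and 43 CPM) differed by -1.08 ± 0.25 (adjusted p = 0.0303). The summed level was 474 and 551 CPM against 789 and 743 CPM for the factors, 1130 and 2680 CPM against 5760 and 5590 CPM for the secretory genes, and 1380 and 3430 CPM against 6040 and 9150 CPM for the hormones. Ileal library 1 was the lowest in each sum. Lmx1a lost its call without jejunal library 2 (adjusted p = 0.11), Nkx2-2 without jejunal library 1 or 2 (0.162 and 0.0965), and Neurod1 without any library but ileal 2 (0.211, 0.465 and 0.253). Of the factors, 6 were called lower without ileal library 1, 13 without ileal library 2, 2 without jejunal library 1 and 0 without jejunal library 2.

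Of 29 stem cell genes of the crypt base 4 were higher in ileum and 2 lower (median log2 0.24). Gkn3, a gastrokine known as a marker of proximal stem cells, was at 4.31 and 6.96 CPM in ileum and 49.7 and 68.4 CPM in jejunum (10.3-fold lower, log2 -3.37 ± 0.28, adjusted p = 1.47e-05), and kept its call with any library left out. Fstl1, a secreted follistatin-like protein, was at 0.562 and 2.53 CPM against 25.4 and 25.3 CPM (15.5-fold lower, adjusted p = 0.0102). Unc5b, a netrin receptor, was at 23.5 and 19.9 CPM against 6.5 and 5.12 CPM (3.73-fold higher, log2 1.90 ± 0.28, adjusted p = 0.00121). Lgr5, the receptor that marks these stem cells, was at 230 and 157 CPM against 83.9 and 97.9 CPM (2.13-fold higher, log2 1.09 ± 0.23, adjusted p = 0.0145). Ephb3, which positions cells in the crypt, was at 135 and 114 CPM against 73 and 63.2 CPM, and Tnfrsf19, a Wnt-responsive receptor, at 40.2 and 33 CPM against 15.9 and 20.2 CPM (log2 0.87 ± 0.20 and 1.02 ± 0.23, adjusted p 0.0266 and 0.02). Olfm4 (11400, 10900, 8780 and 10100 CPM) and Ascl2 (74.1, 61.1, 46.9 and 45.4 CPM), other genes of this state, were not called (log2 0.24 ± 0.35 and 0.55 ± 0.20, adjusted p 0.919 and 0.184). Of 21 Wnt target genes 5 were higher and none lower (median 0.26), 3 of them also stem cell genes, and Axin2 (430, 281, 245 and 243 CPM) was not called (adjusted p = 0.415). Lgr5 lost its call without ileal library 1 (adjusted p = 0.187) or jejunal library 1 or 2 (0.288 and 0.177), Tnfrsf19 without the same libraries (0.0919, 0.237 and 0.121), and Ephb3 without any 1 library (0.0506 to 0.18). Fstl1 lost its call without jejunal library 1 or 2 (0.319 and 0.217) and Unc5b without jejunal library 2 (0.079). Of the stem cell list, 1 was higher and 2 lower without ileal library 1, 3 and 2 without ileal library 2, 1 and 1 without jejunal library 1, and 0 and 1 without jejunal library 2. Of the Wnt targets, 1 was called higher without ileal library 1, 3 without ileal library 2 and none without jejunal library 1 or 2. None of 34 cell cycle genes was called by edgeR, DESeq2 or limma-voom (1 at an unadjusted edgeR p under 0.05, median 0.07): Mki67 was at 406, 404, 530 and 378 CPM and Top2a at 490, 384, 370 and 368 CPM. None of 12 reserve stem cell genes was called by these tools either (1 at an unadjusted p under 0.05), with Hopx at 256, 287, 187 and 253 CPM. Over all tested genes edgeR called 4.14%, so that lists of 34 and 12 genes would hold few calls or none.

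**Figure D4:**
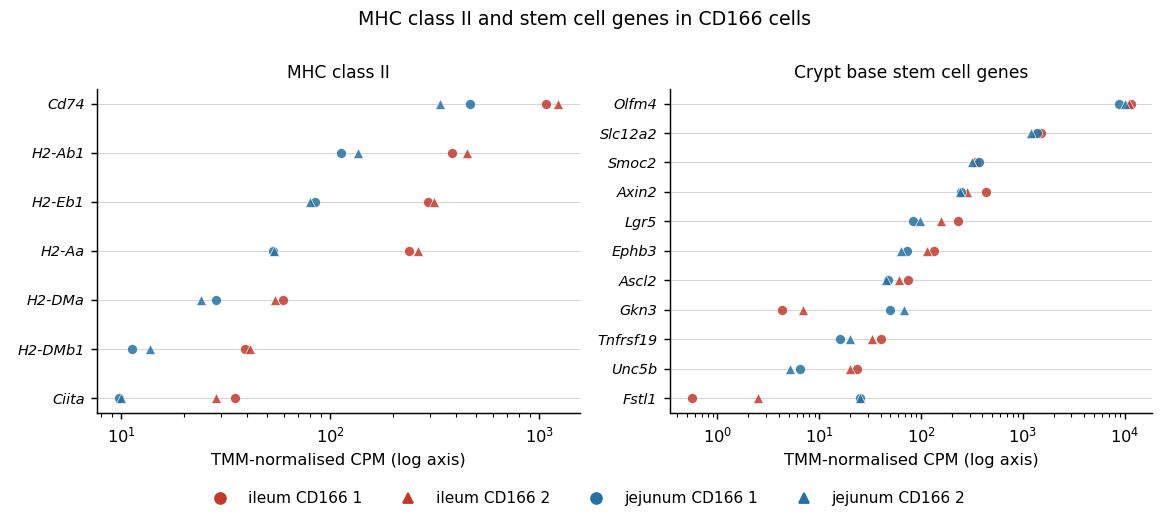
CPM per library (log axis; red, ileum; blue, jejunum; circles, library 1; triangles, library 2) of the 7 tested genes of antigen presentation on MHC class II and of 11 crypt base stem cell genes. All 7 MHC genes lie higher in both ileal libraries, whereas Olfm4 and Smoc2 lie close together and Gkn3 and Fstl1 lie lower in ileum.

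MHC class II genes, which present antigen to helper T cells, rose together: all 7 tested genes were higher in ileum (median log2 1.69). H2-Aa was at 238 and 263 CPM in ileum and 52.9 and 53.6 CPM in jejunum (4.7-fold, log2 2.23 ± 0.21, adjusted p = 2.74e-05). H2-Eb1 was at 292 and 314 CPM against 84.2 and 80 CPM (log2 1.88 ± 0.22, adjusted p = 0.000162), and Cd74, the invariant chain, at 1080 and 1230 CPM against 465 and 334 CPM (2.89-fold, adjusted p = 0.00658). Ciita, the activator of this gene set, was at 34.9 and 28.5 CPM against 9.78 and 10 CPM (log2 1.68 ± 0.24, adjusted p = 0.000846). Ileal libraries 1 and 2 were close to each other for every gene named here. Lymphocyte genes were not called (0 of 12 by edgeR, DESeq2 or limma-voom, 2 at an unadjusted p under 0.05, median 1.19). Over all tested genes edgeR called 4.14%. The summed level of the lymphocyte genes was 16.4 and 110 CPM in ileum and 27 and 22.6 CPM in jejunum. The high value belongs to ileal library 2: the leukocyte gene Ptprc was at 2.15, 17.6, 2.39 and 0.817 CPM and the B cell gene Cd79a at 0.281, 13, 0.684 and 0.0742 CPM. In ileal library 1, 9 of the 28 lymphocyte genes had no count. The MHC class II sum was 2130 and 2380 CPM in ileum and 764 and 651 CPM in jejunum. Which cells the MHC class II difference came from was not tested. Without ileal library 1 the median of the lymphocyte list was 2.4, and without ileal library 2 it was -0.28. It was 1.54 and 1.64 without jejunal library 1 and 2. The median of the MHC genes was 1.65 without ileal library 2. Of the 8 genes tested without jejunal library 1 or 2, 5 and 4 were called; Cd74 lost its call without jejunal library 2 (adjusted p = 0.079) and Ciita without either (0.0579 and 0.0639). Myeloid genes summed to 158 and 194 CPM against 152 and 134 CPM, with 1 of 11 called, Itgam (36.1 and 27.9 CPM, 13.1 and 8.69 CPM, log2 1.55 ± 0.27, adjusted p = 0.00328), which was not called without jejunal library 1 or 2 (0.0507 and 0.126). Stromal genes summed to 47.9 and 70.5 CPM against 85.2 and 61.5 CPM.

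Of 18 defence genes 4 were higher and none lower (median log2 0.89), beside 1.73% higher and 2.41% lower over all tested genes. Duox2, a hydrogen peroxide generating oxidase, was at 163 and 165 CPM in ileum and 54.5 and 41.4 CPM in jejunum (3.42-fold, log2 1.77 ± 0.21, adjusted p = 0.000219), and its maturation factor Duoxa2 at 25.4 and 24.9 CPM against 5.27 and 5.79 CPM (log2 2.18 ± 0.26, adjusted p = 0.000233). The lectin gene Reg3g (740, 427, 79.1 and 222 CPM) was not called (log2 1.95 ± 0.63, adjusted p = 0.326), and neither was Reg1 (7.58, 6.2, 53 and 166 CPM, log2 -3.99 ± 0.80, adjusted p = 0.207). The 2 jejunal libraries differed widely for these lectins, whose near-identical copies may share reads. With 1 library left out, the log2 difference ran from -4.59 to -2.95 for Reg1 and from 1.40 to 2.88 for Reg3g. Of the list, 6 were higher without either ileal library, 3 without jejunal library 1 and 2 without jejunal library 2, with 1 lower in each.

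Of 22 goblet cell genes 5 were higher and 1 lower (median log2 0.79). Capn8, a calpain of mucous cells, was at 19.7 and 17.6 CPM in ileum and 3.56 and 5.27 CPM in jejunum (log2 2.08 ± 0.31, adjusted p = 0.00131), and lost its call without jejunal library 1 (adjusted p = 0.0652). Muc2, the secreted gel-forming mucin, was at 769 and 742 CPM against 748 and 436 CPM (log2 0.35 ± 0.30, adjusted p = 0.815). Agr2, needed for mucin folding, was at 1220 and 3010 CPM against 625 and 746 CPM and was not called (adjusted p = 0.0589). The summed level was 9130 and 16900 CPM against 11200 and 7910 CPM, highest in ileal library 2. Without that library the median of the list was 0.44, and without ileal library 1 it was 0.99. Agr2 differed by 0.83 and 2.14 in these fits. Without jejunal library 1 and 2 the median was 0.89 and 0.69. None of 24 tuft cell genes was called by edgeR, DESeq2 or limma-voom (2 at an unadjusted p under 0.05). Over all tested genes edgeR called 4.14%, so that a list of this size would hold few calls or none. Dclk1 was at 74.3, 186, 168 and 139 CPM. Without ileal library 1 the median of the tuft list was 0.42, and without ileal library 2 it was -0.86.

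The regional difference in CD166 cells was then set against that in LGR5 cells with an interaction term over the 8 sorted libraries. Of 13814 genes, 22 (0.159%) had a regional difference that was lower in CD166 than in LGR5 cells and 0 one that was higher. The direction was not stable: 387 genes were called without jejunal CD166 library 2, of which 72.4% had a higher regional difference in CD166 cells, and 697 without a filter on low counts, of which 28.3% had. Without ileal CD166 library 1, 33.3% of 3 calls were higher. Muc2 was at 1400 and 1860 CPM in ileal and 241 and 166 CPM in jejunal LGR5 libraries, a log2 difference of 3.00 ± 0.30 against 0.35 ± 0.28 in CD166 cells (CD166 minus LGR5 -2.65 ± 0.41, adjusted p = 0.0246). Tph1 was at 2.23 and 4.77 CPM in ileal and 4.48 and 6.14 CPM in jejunal LGR5 libraries (log2 -0.64 ± 0.35), and CD166 minus LGR5 was -3.05 ± 0.46 (adjusted p = 0.0246). Slc18a1 was higher in ileum in LGR5 cells (10.1 and 22.1 CPM, 3.24 and 2.9 CPM, log2 2.39 ± 0.35) and lower in CD166 cells (log2 -0.997 ± 0.30), a difference of -3.38 ± 0.46 (adjusted p = 0.0246). Adcy8, an adenylyl cyclase, was higher in ileum in both populations, with log2 differences of 2.86 ± 0.27 in CD166 and 6.42 ± 0.37 in LGR5 cells.

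The 22 calls depended on single libraries: 0 genes were called without jejunal CD166 library 1 or without jejunal LGR5 library 1 or 2 (936, 1171 and 1034 at an unadjusted p under 0.05), 3 genes were called without ileal CD166 library 1, 8 without ileal LGR5 library 2, 58 without ileal CD166 library 2, 353 without ileal LGR5 library 1 and 387 without jejunal CD166 library 2. limma-voom called none, with 1774 genes at an unadjusted p under 0.05 (edgeR 1819). For the enteroendocrine secretory list the median log2 difference was -1.08 in CD166 and 0.69 in LGR5 cells, with 3 of 46 genes called different, and for the factors -1.03 and 0.41 with none. For Chga the CD166 minus LGR5 value was -3.32 ± 0.66 (adjusted p = 0.176). Lgr5 differed by 0.22 ± 0.45 between regions in LGR5 cells, and CD166 minus LGR5 was 0.87 ± 0.63 (adjusted p = 0.594). Log2 differences of the main regional genes in LGR5 cells were 6.82 for Fabp6, 8.33 for Hoxb8, -3.84 for Gata4 and -6.88 for Onecut2.

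**Figure D5:**
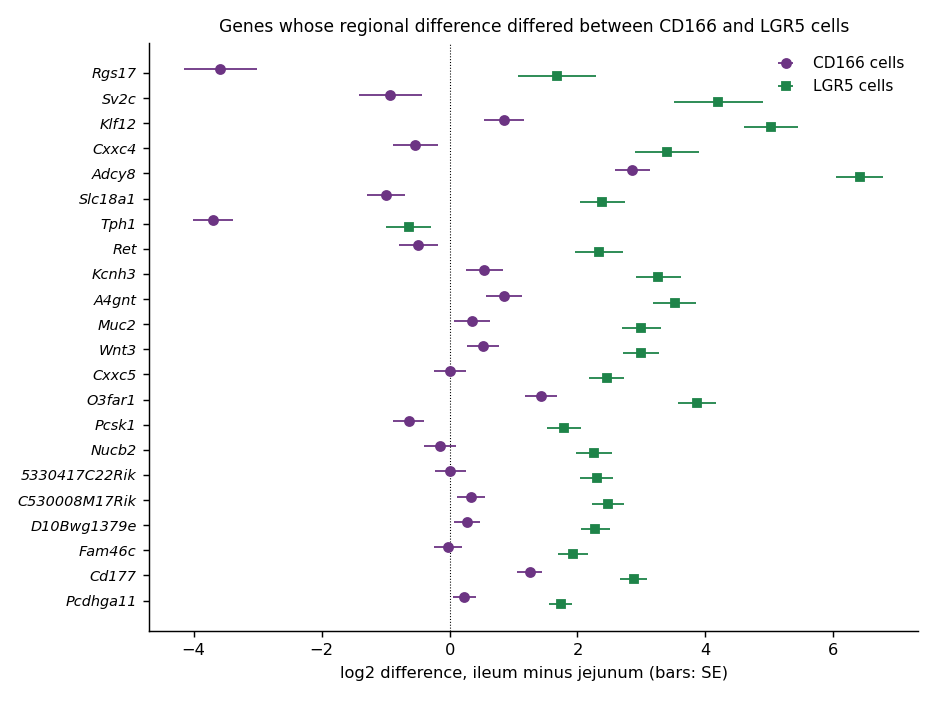
Log2 difference between ileum and jejunum of the 22 genes called in the test of CD166 against LGR5 cells, with bars for the standard error (purple circles, CD166 cells; green squares, LGR5 cells; 2 libraries per group). For every gene the CD166 value lies to the left of the LGR5 value, and for 8 genes the values lie on opposite sides of 0.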

How the data were processed

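RNA of CD166 and LGR5 cells was sequenced from TruSeq libraries as single-end 50-base reads, per the labels' protocols. The submitters' processing notes name mm9 and DESeq, with no step or version; for the aligner, the counter, the strand and the annotation nothing is given in these sources. Genes are named by symbol as in the files, without mm9 coordinates. The authors deposited expected counts per gene (36401 genes, 33018 symbols; 50.6% of values above 0 are whole within 0.001) in files named for RPKM, and log2 values of the same counts, scaled and centred; after 1 constant per library the deposited log2 values differed from the log2 counts by at most 1.32e-06 over 10415 genes.

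Expected counts were rounded. In edgeR 4.0.16 (R 4.3.3), filterByExpr (minimum count 10, minimum total 15), TMM scaling and robust quasi-likelihood F tests were used on the 4 CD166 libraries, and on 8 sorted libraries for the interaction. The p-values of all tested genes were adjusted together (Benjamini-Hochberg), and a call meant an adjusted p under 0.05. The standard error (SE) is the log2 difference divided by the square root of F. All adjusted p-values are from edgeR unless another tool is named. limma 3.58.1 and DESeq2 1.42.0 served as alternatives, with each library left out in turn. On simulated counts for 13784 genes of the CD166 comparison, 37.1% of 2-fold and 87.7% of 4-fold changes in 200 genes were recovered, with 21 and 27 unchanged genes called; for the interaction over 13814 genes, 0.5% and 73.4% were recovered, with 2 and 22 unchanged genes called. In each of these simulations unchanged genes made up a larger share of the calls than 0.05. Floors (3 counts) cover counting error only.

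The libraries, the 33 gene lists (656 genes, 647 in the files, 546 tested) and the tests were chosen with earlier results of these data known. The naming rule took the 12 largest differences per direction among called genes whose libraries did not overlap and whose mean log2 CPM reached 3, up to 6 members per list, 14 marker genes and 10 genes of the interaction; other genes were chosen after their values were seen. A symbol listed repeatedly is represented by its most highly counted entry. Values of the Gm, Ces, Cyp, Reg and defensin genes are uncertain, since similar copies may share reads. The replicates were not duplicates: 48.2% (ileum) and 58.6% (jejunum) of genes differed beyond counting noise between library 1 and 2. Across regions the share was 48.9% to 65.1%, so on this measure the jejunal libraries differed from each other about as much as the regions did. Genes with few counts in a pair were left out of these shares. Crypt libraries entered only the fit over all 14. Some genes of the lists are not reported here.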

Additional observations from a re-analysis of the deposited data

Results flagged for a closer look

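Among genes called in the interaction test whose mean log2 CPM reached 3, the 10 with the largest difference between the regional effects of the 2 sorted populations are given here, each as the log2 regional difference in CD166 cells minus that in LGR5 cells. Klf12, a zinc finger repressor, had -4.17 ± 0.54 (edgeR adjusted p = 0.0246): its regional difference was 5.02 in LGR5 cells (19.5 and 16.9 CPM in ileum, 0.374 and 0.682 CPM in jejunum) and 0.85 in CD166 cells. Adcy8 had -3.56, Slc18a1 -3.38 and Tph1 -3.05, each at an adjusted p of 0.0246. Ret, a receptor tyrosine kinase, had -2.82 (adjusted p = 0.0384), from 2.33 in LGR5 cells and -0.49 in CD166 cells. Kcnh3, a potassium channel, had -2.72 (0.035), and A4gnt, a glycosyltransferase of mucins, -2.67 (0.031). Muc2 had -2.65, Wnt3 -2.47 and Cxxc5 -2.45, each at 0.0246. Wnt3, a ligand made by Paneth cells, was at 35.5 and 42.9 CPM in ileal and 5.48 and 4.43 CPM in jejunal LGR5 libraries. On the same scaling over 8 libraries it was at 39.1 and 35.7 CPM in ileal and 33.2 and 18.8 CPM in jejunal CD166 libraries. In all 10 the regional difference was lower in CD166 cells. None of them was called without jejunal CD166 library 1 or without jejunal LGR5 library 1 or 2, since those fits called 0 genes.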

How the results depend on the processing

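Of 571 genes called between ileal and jejunal CD166 cells, DESeq2 size factors gave 597, a filter of 1 CPM in 2 libraries 564, the DESeq2 Wald test 620, limma-voom 454, the 8 sorted libraries 540 and no robust estimation 461. Larger moves were 1007 without a filter, 308 with limma on the deposited log2 values and 3 with all 14 libraries in the fit; the cause was not tested. Leaving out 1 library gave 133 to 929 genes, with 30.6% to 57.7% of them higher in ileum against 41.9%. For CD166 against LGR5, DESeq2 size factors gave 30 genes and the 1 CPM filter 22; no filter gave 697, the DESeq2 Wald test 245, and limma-voom and the 14-library fit 0 (943 genes at an unadjusted p under 0.05 in the latter), and leaving out 1 library gave 0 to 387. Of 88 called genes named, 3 kept their call with all 14 libraries.

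The replicate block gave 510 genes, 467 of them shared with the 571, and 62 for CD166 against LGR5 (all 22 among them). Deviations of same-numbered libraries correlated at -0.311 over 13784 genes. This value cannot tell whether libraries of equal number share a mouse or day, which the labels do not say. A crossed replicate block, chosen after seeing the data, gave 1077.

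Directions of called genes named did not reverse. Among genes that were not called, Cxxc5 (0.01) was at -0.001 without a filter and with all 14 libraries. With 1 library left out, log2 differences crossed 0 for Cxxc5 (-0.165 to 0.211), Sct (-1.36 to 0.40), Dclk1 (-1.05 to 0.28), Gata6 (-0.41 to 0.18), Mki67 (-0.39 to 0.10), Cd44 (-0.017 to 0.23), Lyz1 (-0.67 to 0.053) and Defa24 (-0.70 to 0.28). Low counts limit Fgf15 (13, 27, 0 and 1 counts; called with an adjusted p of 0.0117, and not called without jejunal library 1 or 2, at 0.361 and 0.173; not tested without ileal library 2), Hoxd4 and Ucn3, for which only bounds or counts are given.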

Other observations

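Genes outside the lists, chosen after their values were seen, also separated the regions. Bex1, a small adaptor protein gene of the X chromosome, was at 59.6 and 63.8 CPM in ileum and 1.03 and 1.11 CPM in jejunum (57.3-fold, log2 5.84 ± 0.27, edgeR adjusted p = 3.75e-08), and its relative Bex4 at 30.5 and 29.4 CPM against 0.274 and 0.297 CPM (102-fold, adjusted p = 2.16e-07). Tceal8, of the related Tceal family, was at 32.1 and 37.2 CPM against 2.46 and 2.23 CPM (log2 3.88 ± 0.28, adjusted p = 2.4e-06). Bex2 went the other way in level, at 3.18, 7.72, 11.2 and 10.2 CPM, and was not called (adjusted p = 0.329). Of 5 tested Bex and Tceal genes 3 were higher and none lower, beside 1.73% higher and 2.41% lower over all tested genes. The log2 differences of Bex1 and Tceal8 in LGR5 cells were 7.50 and 5.52. In these cells Bex4 was at 36.7 and 17.6 CPM in ileum and at 0 and 0 CPM in jejunum. With no count in jejunum, no log2 difference is given for it.

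Retinol dehydrogenase genes, which oxidise vitamin A, went in both directions. Rdh1 was at 32.9 and 32.7 CPM in ileum and 1.3 and 1.78 CPM in jejunum (log2 4.41 ± 0.30, edgeR adjusted p = 1.52e-06), and Rdh9 at 33.5 and 29.8 CPM against 1.03 and 1.93 CPM (log2 4.42 ± 0.34, adjusted p = 3.88e-06). Rdh7 was at 3.56 and 2.91 CPM against 24.1 and 38.9 CPM (log2 -3.29 ± 0.31, adjusted p = 2.77e-05). Of 10 tested Rdh genes 2 were higher and 1 lower, beside 1.73% higher and 2.41% lower over all tested genes. Copies of similar sequence may share reads. Afp, alpha-fetoprotein, was at 0.655 and 1.39 CPM in ileum and 57.5 and 126 CPM in jejunum (84.7-fold lower, adjusted p = 0.0117), Pgc, the precursor of gastricsin, at 0.655 and 0.317 CPM against 16.6 and 14.3 CPM (32.7-fold lower, adjusted p = 1.58e-05), and Arg2, mitochondrial arginase, at 9.45 and 5 CPM against 105 and 181 CPM (20-fold lower, adjusted p = 0.00351). These 6 genes kept their call with any 1 library left out.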
